A study of Mus musculus with 24 samples.

Results

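The Fc gamma receptors are the cell surface receptors through which microglia bind immunoglobulin G. Here they are described by 5 genes, taken from the deposited count table by symbol out of 55434 rows. Fcgr1, Fcgr3 and Fcgr4 encode the ligand-binding chains of the activating receptors, Fcgr2b encodes the inhibitory receptor, and Fcer1g encodes the common gamma chain. All 5 genes had enough reads to be tested in the adult and in the neonatal libraries.

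Each receptor binds the constant part of an antibody, and clustering by immune complexes starts the signal. The activating chains pair with the common gamma chain, whose immunoreceptor tyrosine-based activation motif is phosphorylated by Src family kinases and then recruits the kinase Syk. FcgammaRIIB, the product of Fcgr2b, carries an inhibitory motif of the same kind (ITIM) that recruits the lipid phosphatase SHIP1, encoded by Inpp5d. Lupus is a disease of autoantibodies and immune complexes, and the balance of activating and inhibitory receptors sets how strongly macrophages answer to them. In mice, FcgammaRI and FcgammaRIV are known for binding IgG2a/c, and FcgammaRIII for binding IgG1 complexes.

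The 24 libraries fall into 8 groups of 3, all of brain cells selected for CD11b, a marker of myeloid cells, after enzymatic digestion. In 6 groups the cells came from neonatal MRL/lpr mice and were kept in culture with serum for 48 h. For 6 h they then received no stimulus, a single cytokine or the mixture. The single cytokines were the type II interferon IFNg, the type I interferon IFNa, interleukin IL6 and the tumour necrosis factor TNFa. The other 2 groups were taken from untreated mice aged 16 weeks, of strain MRL/lpr and of strain MRL/MpJ. The lpr mutation, in the death receptor gene Fas, is what sets MRL/lpr apart, and these mice develop a lupus-like disease with high titres of autoantibodies, and MRL/MpJ is the parent strain. No neonatal group came from MRL/MpJ mice, so each cytokine comparison is within the lupus-prone strain. The cytokine doses are not in the labels. Nothing says whether libraries of a group came from separate mice or cultures, so p-values measure only the spread between these libraries, which may be technical.

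Fcgr1 lies on chromosome 3 (mm10, 96282909 to 96293969, minus strand). The other members share a stretch of chromosome 1. In order they are Fcgr2b (170958617 to 170976547, minus strand), Fcgr4 (171018920 to 171029761, plus strand), Fcgr3 (171051174 to 171064935, minus strand) and Fcer1g (171229572 to 171234365, minus strand). The start regions of Fcgr1 and Fcgr4 are shown because these genes responded to both interferons. They are the bases before the RefSeq start (GRCm38.p6, reference strain, not read from MRL mice), 5′ to 3′ on the gene's strand. Capitals mark a gamma-activated site, TTCNNNGAA, in Fcgr1 and the core of an interferon-stimulated response element (2 GAAA boxes a pair of bases apart) in Fcgr4. The Fcgr1 stretch is chr3:96293970-96294219, and the Fcgr4 stretch is chr1:171018676-171018919, without the bases annotated as exon.
Fcgr1: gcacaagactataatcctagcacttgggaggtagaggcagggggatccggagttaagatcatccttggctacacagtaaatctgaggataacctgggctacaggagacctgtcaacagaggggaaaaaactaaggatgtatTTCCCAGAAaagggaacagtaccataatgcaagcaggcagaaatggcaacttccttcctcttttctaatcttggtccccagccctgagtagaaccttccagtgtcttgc
Fcgr4: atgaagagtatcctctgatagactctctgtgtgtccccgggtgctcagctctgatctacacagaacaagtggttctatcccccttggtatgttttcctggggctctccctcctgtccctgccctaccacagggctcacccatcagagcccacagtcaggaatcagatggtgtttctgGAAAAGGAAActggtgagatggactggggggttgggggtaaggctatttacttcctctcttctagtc
The gamma-activated site began 109 bases before the Fcgr1 start, and the response element core 73 bases before the Fcgr4 start. Both strands of 300-base windows (250 bases before to 50 after a start) were searched. TTCNNNGAA was present in 8.30% of 32851 promoter windows and the response element core in 3.44% of them. All 5 members matched a window, and neither motif occurred in the windows of Fcgr3, Fcgr2b and Fcer1g. The windows of Fcgr2b and Fcgr3 lie inside the gene bounds given above. Of the 250 bases before the Fcgr2b start, 203 are annotated as exon. For Fcgr2b and Fcgr3 the absence thus describes sequence within the genes, not before them. The myeloid ETS core GAGGAA was present for Fcgr1, Fcgr3 and Fcgr4, and in 28.3% of all windows. The motifs overlapped each other in none of the members' windows. A match describes letters only, not binding.

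Library totals ran from 10084927 to 19316994 counted reads. The log2 values below are edgeR fold changes ± SE, called at an adjusted p (Benjamini-Hochberg, over all genes) under 0.05. Levels are given as CPM, read counts scaled to library size with TMM factors. This was done separately in the adult and the neonatal libraries, so levels are not compared across age. Where genes are compared with each other, CPM was divided by gene length and is given as CPM per kb. Libraries of the same number deviated together across the neonatal groups, so the value with the number as a block is given where it changes a call. Cell type markers other than Mrc1 were not compared with and without the block. With scaling by total counts alone, the median log2 fold change of all genes was 0.27 in the adult comparison, -0.21 with IFNg, -0.22 with IFNa and -0.47 with the mixture. In these 4 comparisons the TMM-scaled calls split into 3328 higher and 2982 lower, 1254 and 632, 1377 and 741, and 2289 and 2398. With total counts the splits were 4783 and 1439, 996 and 1211, 1190 and 1560, and 1547 and 4993.

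How far the counts separate Fcgr2b from Fcgr3 depends on their shared sequence. Of the 50-base stretches in Fcgr3 transcripts, 9.58% also occur in Fcgr2b transcripts, and these are 2.92% of the stretches of Fcgr2b, which shares 4.38% with any other gene. How the counting split such reads is not stated. At even coverage, the Fcgr3 reads from shared stretches would come to 0.241 to 0.258 of the whole Fcgr2b count in the adult libraries. In culture they would come to 0.365 to 2.71 of it, and to more than the Fcgr2b count in 10 of 18 libraries. The range was 1.63 to 2.67 with IFNa, 1.47 to 2.71 with IFNg, 0.880 to 2.53 with the mixture, 0.972 to 2.02 unstimulated, 0.643 to 0.984 with IL6 and 0.365 to 0.732 with TNFa. Fcgr2b in culture, its fold changes and every ratio to it may therefore hold a large part of Fcgr3 signal, and that part was not tested. Fcgr1, Fcgr4 and Fcer1g shared no 50-base stretch with transcripts of another gene. The antisense gene Gm38204 shares 155 exonic bases with Fcgr2b and had 0 reads in the 24 libraries.

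**Figure D1:**
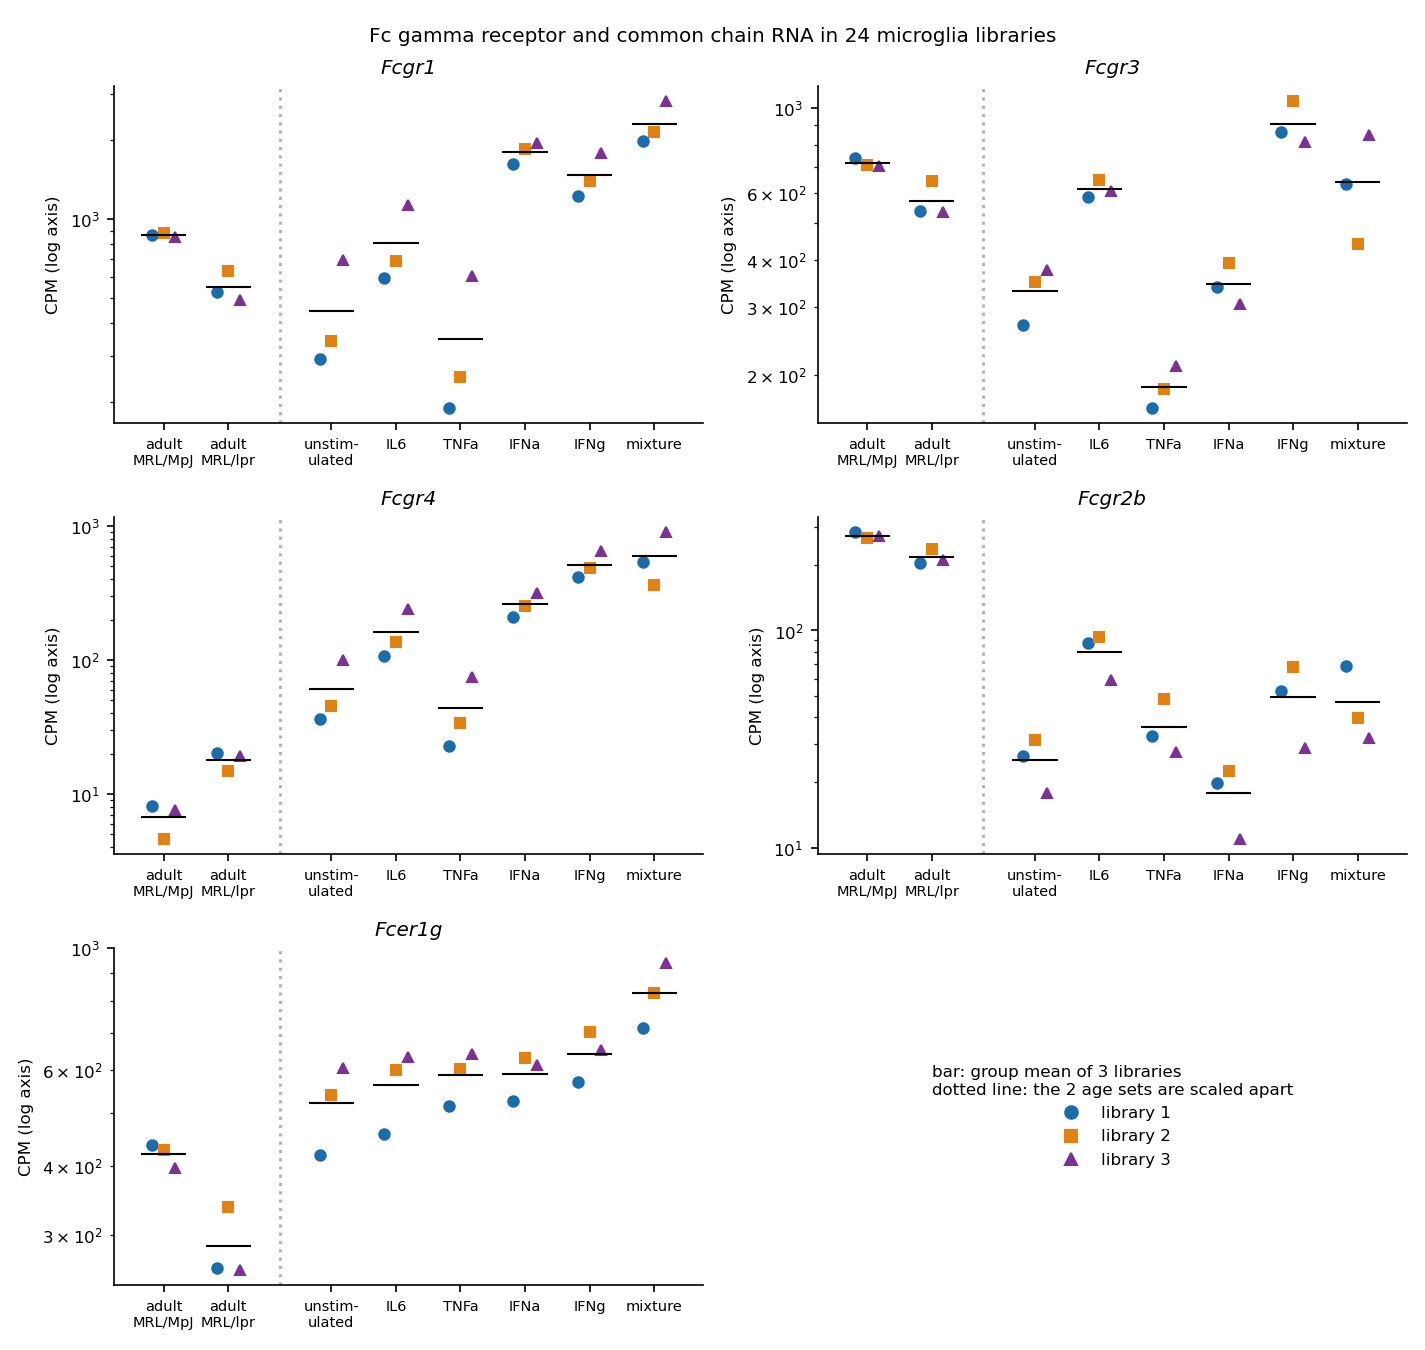
CPM (log axis, TMM-scaled within each age set) of the 5 genes in 24 libraries, with 3 libraries per group as points and the group mean as a bar. Fcgr4 ran from 4.63 to 20.2 CPM in the adults and from 22.6 to 899 CPM in the neonatal cultures, and neonatal library 3 (triangles) lay above libraries 1 and 2 for Fcgr1 in every culture condition.

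Before stimulation, cultured neonatal cells held mainly Fcgr3 and Fcgr1 RNA and little Fcgr2b. In CPM per kb, the mean level was 191 ± 31.8 for Fcgr3, 171 ± 85.6 for Fcgr1, 48.2 ± 27.3 for Fcgr4 and 4.36 ± 1.19 for Fcgr2b (SD, n = 3). Fcgr1 and Fcgr3 overlapped within that spread. The common chain Fcer1g was above each receptor chain, at 596 ± 108 CPM per kb. Fcgr1 stood at 291, 342 and 698 CPM in the 3 unstimulated libraries, and Fcgr4 at 36.2, 45.6 and 99.8 CPM. Fcgr2b ran the other way, at 26.5, 31.4 and 17.8 CPM. Library 3 thus had the highest Fcgr1 and Fcgr4 and the lowest Fcgr2b of the unstimulated group, and so it did in each of the other neonatal groups.

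In the adult mice, Fcgr4 was higher in MRL/lpr than in MRL/MpJ microglia, while the other 4 members were lower. Fcgr4, the IgG2a/c receptor typical of monocytes and activated macrophages, measured 20.2, 14.8 and 19.3 CPM in MRL/lpr and 8.07, 4.63 and 7.65 CPM in MRL/MpJ. Every MRL/lpr library was above every MRL/MpJ library, and Fcgr4 rose 2.65-fold (log2 1.41 ± 0.231, adjusted p = 0.000444). It was still the least abundant receptor in adult cells of either strain, at 14.4 ± 2.28 and 5.40 ± 1.49 CPM per kb (SD, n = 3).

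Fcgr1, the high-affinity receptor, measured 524, 634 and 488 CPM in MRL/lpr and 865, 881 and 853 CPM in MRL/MpJ. The groups did not overlap, and Fcgr1 fell by 0.66 on the log2 scale (SE 0.111, adjusted p = 0.000518). Fcgr3, the low-affinity activating receptor, measured 537, 643 and 533 CPM against 738, 710 and 706 CPM and was 1.26-fold lower (log2 -0.33 ± 0.103, adjusted p = 0.0203). The inhibitory Fcgr2b measured 204, 238 and 212 CPM against 283, 266 and 271 CPM and was 1.25-fold lower (log2 -0.33 ± 0.0983, adjusted p = 0.0174). The common chain Fcer1g measured 261, 337 and 259 CPM against 437, 427 and 397 CPM and was 1.47-fold lower (log2 -0.56 ± 0.118, adjusted p = 0.00230). For these 3 genes, too, the groups did not overlap. How many of all genes separated in this way was not counted, here or in the cytokine comparisons. Such separation describes the members and does not single them out. With total counts alone, the strains overlapped for Fcgr3 (585 to 693 CPM in MRL/lpr, 643 to 664 CPM in MRL/MpJ). They also did for Fcgr2b (222 to 257 and 247 to 255 CPM) and Fcer1g (284 to 363 and 361 to 397 CPM).

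So 5 of 5 members passed the test, in a comparison in which 45.7% of all genes tested did. The falls of Fcgr3 and Fcgr2b depend on the scaling: with total counts they were -0.07 (adjusted p = 0.576) and -0.07 (adjusted p = 0.594), and 3 members were called. The same 2 were lost without a filter on low counts (adjusted p = 0.0597 and 0.0759), and with all 24 libraries in 1 fit Fcgr1 was lost too (log2 -0.72, adjusted p = 0.122). Both also missed the threshold without MRL/lpr library 1 (adjusted p = 0.0903 and 0.0890), without MRL/lpr library 3 (0.0873 and 0.0696) and without MRL/MpJ library 1 (0.0612 and 0.0542). Fcgr3 alone missed it without MRL/MpJ library 3 (0.0503).

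Microglial markers moved with the strain. Of 10 markers, 7 fell and 0 rose in MRL/lpr, and none was at 0. Their summed level was 38824 to 43342 CPM, against 68920 to 73406 CPM in the parent strain. In bulk RNA, fewer cells of a type and less RNA per cell cannot be told apart. Of 9 border macrophage markers 6 were lower and 1 higher, with sums of 417 to 710 CPM against 577 to 700 CPM. Natural killer cell markers, a lineage known to carry Fcgr3, were higher for 5 of 8, with sums of 61.9 to 78.9 CPM against 18.4 to 34.9 CPM (Klre1 at 0 in MRL/MpJ). Monocytes and neutrophils are known to carry Fcgr4. Monocyte markers were higher for 3 of 7, with sums of 64.9 to 204 CPM against 63.3 to 84.8 CPM. Neutrophil markers were higher for 1 and lower for 1 of 10, with sums of 998 to 1102 CPM against 765 to 1193 CPM. B and plasma cell markers summed to 544 to 696 CPM against 405 to 439 CPM (2 of 5 tested higher, 1 lower, Mzb1 at 0 in MRL/MpJ). T cell markers summed to 17.5 to 19.8 CPM against 6.24 to 12.1 CPM (4 of 8 higher, Cd8b1 at 0 in MRL/MpJ). Dendritic cell markers summed to 10.7 to 15.9 CPM against 32.7 to 40.5 CPM (1 of 3 tested lower). Mast cell markers summed to 6.95 to 14.29 CPM against 1.11 to 4.03 CPM (1 of 2 tested higher, Mcpt4 at 0 in both strains, Tpsb2 in MRL/lpr and Ms4a2 in MRL/MpJ). The part of these cells in the receptor differences was not tested.

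IFNg raised all 3 activating chains. Fcgr4 went from 36.2, 45.6 and 99.8 CPM to 414, 486 and 650 CPM, an 8.52-fold rise (log2 3.09 ± 0.508, adjusted p = 0.000714). Fcgr1 reached 1226, 1400 and 1791 CPM and rose 3.32-fold (log2 1.73 ± 0.405, adjusted p = 0.00920). Fcgr3 went from 269, 349 and 375 CPM to 866, 1040 and 812 CPM, a 2.74-fold rise (log2 1.45 ± 0.203, adjusted p = 0.000145). For none of the 3 did an IFNg library overlap an unstimulated one.

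The inhibitory Fcgr2b measured 52.5, 67.8 and 28.6 CPM with IFNg, and library 3 overlapped the unstimulated range (log2 0.97 ± 0.369, adjusted p = 0.108). Each numbered pair was higher with IFNg, by 1.61-fold to 2.16-fold, and with the block Fcgr2b passed (log2 0.94, adjusted p = 0.00119), as it did without IFNg library 3 (log2 1.24, adjusted p = 0.0444). Fcer1g measured 569, 702 and 650 CPM against 418, 539 and 605 CPM (log2 0.30 ± 0.166, adjusted p = 0.309), and passed with the block (log2 0.31, adjusted p = 0.00667). IFNg thus called 3 of 5 members, where 12.9% of all genes were called. With the block it called 5 of 5, where 3468 of 14626 genes passed. The Fcgr1 call was lost without unstimulated library 1 (log2 1.5, adjusted p = 0.0521) or library 2 (log2 1.58, adjusted p = 0.0551). In the edgeR fit with the block it passed (log2 1.82, adjusted p = 4.94e-05), and no library was left out of that fit.

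IFNa raised 2 of 5 members, Fcgr1 and Fcgr4, and 14.5% of all genes passed in the same comparison. Fcgr1 reached 1622, 1847 and 1950 CPM, a 4.07-fold rise (log2 2.03 ± 0.409, adjusted p = 0.00283). Fcgr4 reached 210, 252 and 319 CPM, a 4.29-fold rise (log2 2.1 ± 0.489, adjusted p = 0.00790). Both were above every unstimulated library. Fcgr3 stayed at 339, 391 and 306 CPM (log2 0.06 ± 0.199, adjusted p = 0.930). Fcgr2b had its lowest mean of the neonatal groups, at 19.9, 22.6 and 11 CPM, and each numbered pair was lower with IFNa, at 0.617 to 0.750 of its unstimulated level. That difference did not pass (log2 -0.50 ± 0.371, adjusted p = 0.487, and 0.0585 with the block). Fcer1g measured 527, 631 and 611 CPM (log2 0.18 ± 0.165, adjusted p = 0.604).

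IL6 raised the inhibitory Fcgr2b and the activating Fcgr3. Fcgr2b measured 87.2, 93.7 and 58.9 CPM, above every unstimulated library, a 3.16-fold rise (log2 1.66 ± 0.374, adjusted p = 0.0491). Each numbered pair rose by 2.98-fold to 3.30-fold. Fcgr3 measured 585, 648 and 605 CPM and rose 1.85-fold (log2 0.89 ± 0.201, adjusted p = 0.0472). Fcgr4 measured 108, 136 and 242 CPM (log2 1.42 ± 0.479, adjusted p = 0.266) and Fcgr1 596, 690 and 1133 CPM (log2 0.86 ± 0.397, adjusted p = 0.511). With the block, Fcgr4 (log2 1.46, adjusted p = 0.00169) and Fcgr1 (log2 0.90, adjusted p = 0.0311) passed as well. Fcer1g stayed at 458, 599 and 632 CPM (log2 0.11 ± 0.165, adjusted p = 0.938). The count was 2 of 5, where 0.978% of all genes passed, and 4 of 5 with the block, where 714 of 14626 did. Without the block both calls sit at the threshold. Leaving out any 1 of the 3 IL6 or 3 unstimulated libraries left 0, with adjusted p from 0.0581 to 0.217 for Fcgr2b and from 0.0898 to 0.206 for Fcgr3. Fcgr2b was also lost with total counts (adjusted p = 0.0850) or no filter (0.161). In the edgeR fit with the block both passed (adjusted p = 3.86e-05 for Fcgr2b and 0.0136 for Fcgr3), and no library was left out of that fit.

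TNFa lowered Fcgr3, to 164, 183 and 210 CPM, all below the unstimulated libraries (1.78-fold lower, log2 -0.83 ± 0.201, adjusted p = 0.0142). It was the 1 member called, where 8.1% of all genes passed. Fcgr1 measured 190, 248 and 603 CPM (log2 -0.35 ± 0.395, adjusted p = 0.778) and Fcgr4 22.6, 33.8 and 74.2 CPM (log2 -0.48 ± 0.474, adjusted p = 0.731). Both overlapped the unstimulated range, though each numbered pair was lower with TNFa. Fcgr2b measured 32.5, 48.2 and 27.5 CPM, higher in each numbered pair (log2 0.51 ± 0.367, adjusted p = 0.559, and 0.0666 with the block). Fcer1g measured 514, 602 and 642 CPM (log2 0.17 ± 0.165, adjusted p = 0.722). The Fcgr3 call was lost without TNFa library 1 (adjusted p = 0.0686) or 2 (0.0568) and without unstimulated library 2 (0.0616) or 3 (0.0710). In the edgeR fit with the block it passed (log2 -0.83, adjusted p = 0.00644), and no library was left out of that fit.

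The mixture gave the highest mean Fcgr1, Fcgr4 and Fcer1g of the neonatal groups, and 4 of 5 members passed where 32% of all genes did. Fcgr4 measured 544, 365 and 899 CPM, a 9.94-fold rise (log2 3.31 ± 0.513, adjusted p = 0.000134). Fcgr1 measured 1981, 2145 and 2811 CPM, a 5.22-fold rise (log2 2.38 ± 0.415, adjusted p = 0.000350). Fcgr3 measured 632, 440 and 849 CPM, a 1.93-fold rise (log2 0.95 ± 0.201, adjusted p = 0.00158). Fcer1g, the signalling chain, measured 715, 829 and 938 CPM, a 1.59-fold rise (log2 0.67 ± 0.166, adjusted p = 0.00521). All 4 were above every unstimulated library in TMM-scaled CPM. Fcgr2b measured 68.8, 39.6 and 32.1 CPM, which did not overlap the unstimulated range either (log2 0.89 ± 0.369, adjusted p = 0.0811), and passed with the block (log2 0.90, adjusted p = 0.000832). It also passed with DESeq2 (adjusted p = 0.0309), with all 24 libraries in 1 fit (0.0326) and without mixture library 3 (0.0456). With total counts alone, mixture library 2 had 365 CPM of Fcgr3, inside the unstimulated 331 to 383 CPM. Fcgr2b with that scaling ran from 24.3 to 62.3 CPM, overlapping the unstimulated 18.2 to 33.8 CPM. Over the alternatives the lowest log2 was 0.54 for Fcgr3 and 0.26 for Fcer1g, and each passed in 15 of 15.

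**Figure D2:**
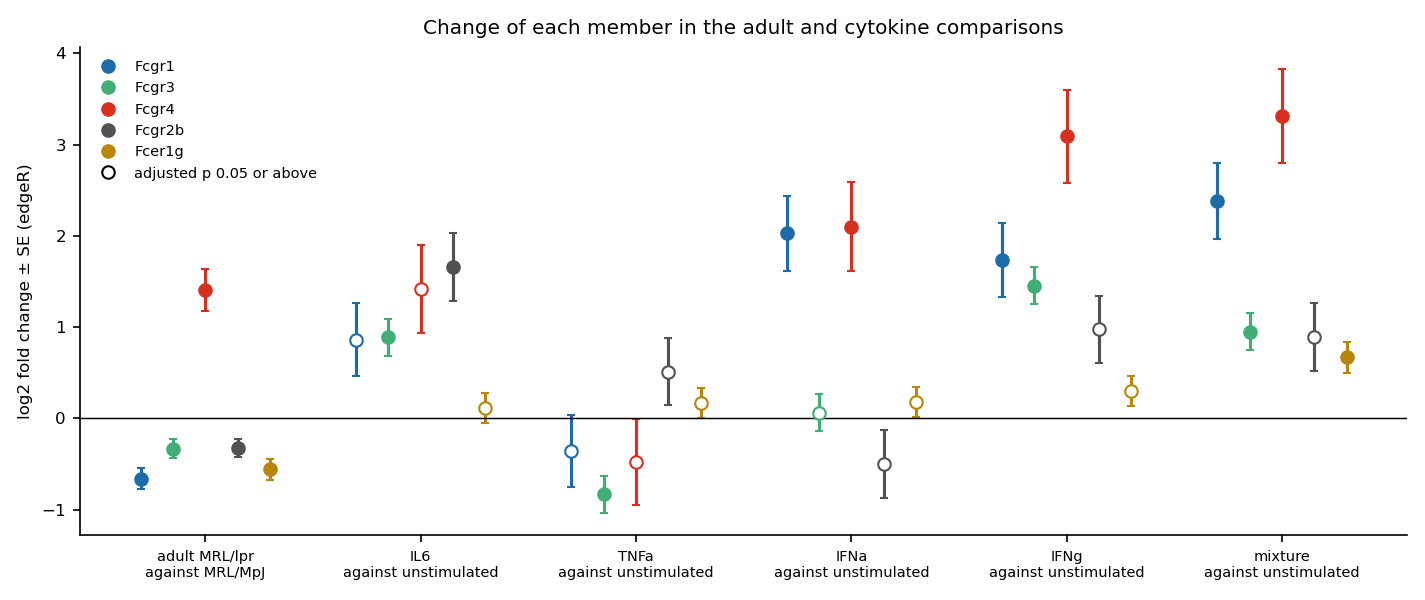
Log2 fold change ± SE from edgeR for each member in 6 comparisons, with filled points for an adjusted p under 0.05. Fcgr4 had the highest value of the 5 in the adult (1.41), IFNg (3.09), IFNa (2.1) and mixture (3.31) comparisons, and Fcgr2b in the IL6 (1.66) comparison.

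Compared directly, IFNg and IFNa differed in Fcgr3 and Fcgr2b. Fcgr3 was 2.62-fold higher with IFNg (log2 1.39 ± 0.203, adjusted p = 0.000895), and Fcgr2b 2.78-fold higher (log2 1.47 ± 0.375, adjusted p = 0.0318). Fcgr1 did not differ beyond its spread (log2 -0.29 ± 0.394, adjusted p = 0.848). Fcgr4 was 1.93-fold to 2.04-fold higher with IFNg in the numbered pairs (log2 0.99 ± 0.472, adjusted p = 0.327), and passed with the block (log2 0.98, adjusted p = 0.00797). The count was 2 of 5, against 5.17% of all genes, or 3 of 5 with the block, against 2058 of 14626 genes. The Fcgr2b call was lost without IFNg library 1 (adjusted p = 0.0981) or 2 (0.167), or without IFNa library 1 (0.0868), 2 (0.0568) or 3 (0.122). It was lost as well with total counts (0.0509), no filter (0.0975) or only the 2 groups in the fit (0.0825), where Fcgr4 passed (adjusted p = 0.0299). In the edgeR fit with the block Fcgr2b passed (log2 1.46, adjusted p = 7.6e-05), and no library was left out of that fit.

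The mixture was then set against each single cytokine. With total counts, the median log2 fold change of all genes was -0.24 against IFNg, -0.43 against IL6, -0.26 against IFNa and -0.36 against TNFa. The calls of all genes split into 735 higher and 2769 lower, 1401 and 4628, 448 and 1939, and 1332 and 4184 with that scaling, and into 944 and 1145, 2018 and 2088, 608 and 553, and 1839 and 1845 with TMM. Between mixture and IFNg the edgeR test called 0 of 5 members, where 6.45% of all genes were called higher and 7.83% lower. At an unadjusted p under 0.05 it gave 2, Fcgr3 (log2 -0.50 ± 0.200, adjusted p = 0.115) and Fcer1g (log2 0.37 ± 0.166, adjusted p = 0.170). DESeq2 called 1 and limma-voom 0. With the block 2 passed, Fcer1g (log2 0.36, adjusted p = 0.00187) and Fcgr1 (log2 0.65, adjusted p = 0.0400), and each was higher with the mixture in all 3 numbered pairs. Over all genes, 3844 of 14626 passed with the block. Fcgr3 passed with total counts (log2 -0.74, adjusted p = 0.00411) and reached the threshold without mixture library 3 (log2 -0.68, adjusted p = 0.0244), and Fcer1g without mixture library 1 (log2 0.54, adjusted p = 0.0411).

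Against IFNa, the mixture was higher in Fcgr3 (log2 0.89 ± 0.201, adjusted p = 0.0109) and Fcgr2b (log2 1.39 ± 0.375, adjusted p = 0.0323). That made 2 of 5, against 7.94% of all genes, or 4 of 5 with the block, against 2689 of 14626 genes. The block added Fcgr4 (log2 1.15, adjusted p = 0.00248) and Fcer1g (log2 0.48, adjusted p = 0.000273). Without IFNa library 3 neither Fcgr3 (adjusted p = 0.0621) nor Fcgr2b (0.144) passed, and Fcgr2b was lost as well without IFNa library 1 (0.0765) or mixture library 1 (0.127). Fcer1g passed without mixture library 1 (log2 0.62, adjusted p = 0.0341). With only the 2 groups in the fit, neither gene passed (adjusted p = 0.113 for Fcgr3 and 0.104 for Fcgr2b), and Fcgr2b was lost with limma-voom (0.0524), total counts (0.0679) or no filter (0.0944). In the edgeR fit with the block both passed (adjusted p = 0.00499 for Fcgr3 and 7.07e-05 for Fcgr2b), and no library was left out of that fit.

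Against IL6, the mixture was higher in Fcgr4 (log2 1.90 ± 0.484, adjusted p = 0.00789), Fcgr1 (log2 1.52 ± 0.403, adjusted p = 0.00960) and Fcer1g (log2 0.56 ± 0.166, adjusted p = 0.0186). That was 3 of 5 members, against 28.1% of all genes. Fcgr2b was lower with the mixture in each numbered pair (log2 -0.77 ± 0.365, adjusted p = 0.138) and passed with the block (log2 -0.78, adjusted p = 0.00257). Without IL6 library 1, Fcgr1 (adjusted p = 0.05, just above it) and Fcer1g (0.0998) missed the threshold. With total counts Fcer1g was lost (log2 0.18, adjusted p = 0.157) and Fcgr2b passed as lower (log2 -1.13, adjusted p = 0.0384). In the edgeR fit with the block, from which no library was left out, Fcgr1 (adjusted p = 6.93e-05) and Fcer1g (1.26e-05) passed.

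Against TNFa, 4 of 5 members were higher with the mixture, where 25.2% of all genes passed. Fcgr4 was 13.8-fold higher (log2 3.79 ± 0.524, adjusted p = 7.68e-05), Fcgr1 6.66-fold (log2 2.74 ± 0.420, adjusted p = 0.000172) and Fcgr3 3.45-fold (log2 1.79 ± 0.205, adjusted p = 1.06e-05). Fcer1g was 1.41-fold higher (log2 0.50 ± 0.166, adjusted p = 0.0368), a call lost without TNFa library 1 (adjusted p = 0.155) or 2 (0.0862) or mixture library 3 (0.0774), with total counts (log2 0.15, adjusted p = 0.241), no filter (0.0757) or only the 2 groups in the fit (0.0682). Fcgr2b did not pass (log2 0.38 ± 0.365, adjusted p = 0.547). In the edgeR fit with the block, from which no library was left out, Fcer1g passed (log2 0.50, adjusted p = 5.61e-05).

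The mixture was also set against the sum of the 4 single-cytokine changes on the log2 scale, and edgeR called 0 of 5 members, where 1.68% of all genes passed. At an unadjusted p under 0.05 it gave 1, Fcgr4, which fell short of the sum by 2.82 (log2 -2.82 ± 1.30, adjusted p = 0.448). DESeq2 and limma-voom each called 0. With the block Fcgr4 passed (log2 -3.02, adjusted p = 0.00935). The estimates for Fcgr1 (log2 -1.88 ± 1.07) and Fcgr2b (log2 -1.76 ± 0.995) lay below the sum too, without passing (adjusted p = 0.605 and 0.6), and those for Fcgr3 (log2 -0.62 ± 0.532, adjusted p = 0.813) and Fcer1g (log2 -0.09 ± 0.438, adjusted p = 0.990) did not pass either.

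Ranked by mean level among the 6 neonatal groups, Fcgr1 ran from mixture through IFNa, IFNg, IL6 and unstimulated to TNFa. The libraries of IFNa and IFNg overlapped, as did those of IL6, unstimulated and TNFa. Fcgr4 ran from mixture through IFNg, IFNa, IL6 and unstimulated to TNFa, with overlap between mixture and IFNg, IFNa and IL6, and unstimulated and TNFa. Fcgr3 ran from IFNg through mixture, IL6, IFNa and unstimulated to TNFa, and the TNFa libraries overlapped with no other group. Fcgr2b had another order, from IL6 through IFNg, mixture, TNFa and unstimulated to IFNa, in which each group overlapped its neighbour. Fcer1g was highest with the mixture, apart from all other groups, which overlapped one another. These overlaps are those of TMM-scaled CPM. With total counts alone, Fcer1g with the mixture (647 to 711 CPM) overlapped IFNg (587 to 664 CPM). Fcgr1 with the mixture (1783 to 2132 CPM) overlapped IFNa (1709 to 1834 CPM) with that scaling.

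The balance of receptors was followed as the summed CPM per kb of Fcgr1, Fcgr3 and Fcgr4 over that of Fcgr2b within each library, a ratio that no library scaling can move. It is given as a description, with no test, and it rests on Fcgr2b counts that reads shared with Fcgr3 could make up in large part in culture. Unstimulated libraries 1, 2 and 3 had ratios of 64.6, 68.0 and 183. IFNa gave 288, 292 and 622, above every unstimulated library, and IFNg gave 144, 130 and 339. The mixture gave 131, 201 and 413. IL6 gave 43.3, 46.2 and 96.2, and TNFa 33.0, 27.5 and 86.9. Apart from IFNa, the ranges overlapped with the unstimulated one, and library 3 had the highest ratio in each neonatal group.

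Within numbered pairs the direction was the same in all 3 pairs for each cytokine. The mean log2 ratio was higher by 2.01 with IFNa (pairs from 1.76 to 2.15), by 1.25 with the mixture (1.02 to 1.56) and by 0.99 with IFNg (0.89 to 1.15). It was lower with IL6 (log2 -0.69, pairs from -0.93 to -0.56) and with TNFa (log2 -1.12, pairs from -1.31 to -0.97). The terms behind these shifts differed. With IFNa, Fcgr4 against Fcgr2b moved by log2 2.75, Fcgr1 against Fcgr2b by 2.66 and Fcgr3 against Fcgr2b by 0.60. With IFNg the Fcgr4 term moved by log2 2.28, the Fcgr1 term by 0.90 and the Fcgr3 term by 0.53. With TNFa, Fcgr3 against Fcgr2b moved by log2 -1.34, Fcgr4 by -1.02 and Fcgr1 by -0.94, and with IL6 these terms moved by -0.77, -0.20 and -0.76. With the mixture, Fcgr4 against Fcgr2b moved by log2 2.51 and Fcgr1 by 1.62, while Fcgr3 against Fcgr2b moved by 0.06, in different directions among the pairs.

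**Figure D3:**
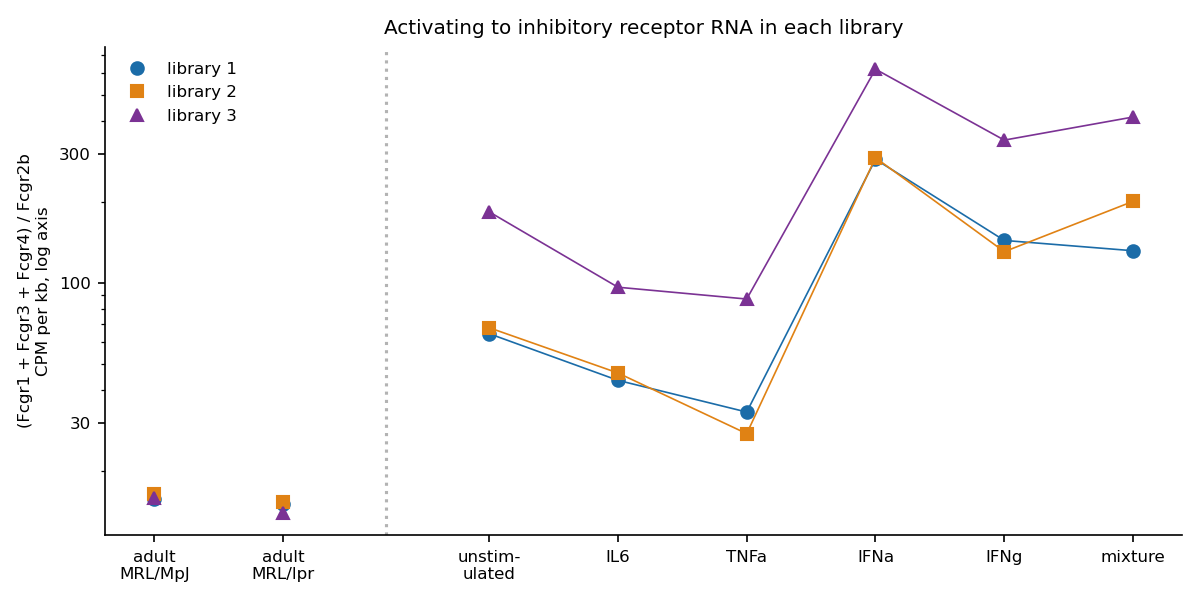
Activating to inhibitory ratio, (Fcgr1 + Fcgr3 + Fcgr4) / Fcgr2b in CPM per kb, on a log axis, with 1 point per library and lines joining neonatal libraries of the same number. Adult ratios ran from 13.9 to 16.4 and neonatal ratios from 27.5 with TNFa to 622 with IFNa, and the 3 lines moved the same way from unstimulated to each condition.

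In the adults the ratio was far narrower, at 15.0, 15.2 and 13.9 in MRL/lpr and 15.7, 16.4 and 15.8 in MRL/MpJ. The groups did not overlap, and the mean log2 ratio was lower in MRL/lpr by 0.12 (log2 -0.12). Relative to Fcgr2b, Fcgr1 was lower (log2 -0.34), Fcgr3 differed by less than its spread (log2 -0.01, libraries overlapping) and Fcgr4 was 3.42-fold higher (log2 1.77). Averaged with equal weight for the 3 receptors, the adult difference turned to 0.48. Fcgr4 was at 0.462% to 2.85% of the 4 receptors' RNA in these libraries.

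Shares of the 4 receptors, per kb, show the same shift in make-up. Fcgr3 made up 51.2% to 56.1% in adults of both strains and 38.0% to 53.7% in unstimulated cultures. With IFNa it was 14.9% to 19.7%, while Fcgr1 took 62.4% to 63.5%. With IFNg, Fcgr4 took 25.1% to 30.8%, against 9.59% to 14.0% unstimulated. Fcgr2b was 5.76% to 6.69% in the adults. In culture its share was 0.542% to 1.52% unstimulated, 0.160% to 0.346% with IFNa and 1.14% to 3.51% with TNFa.

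**Figure D4:**
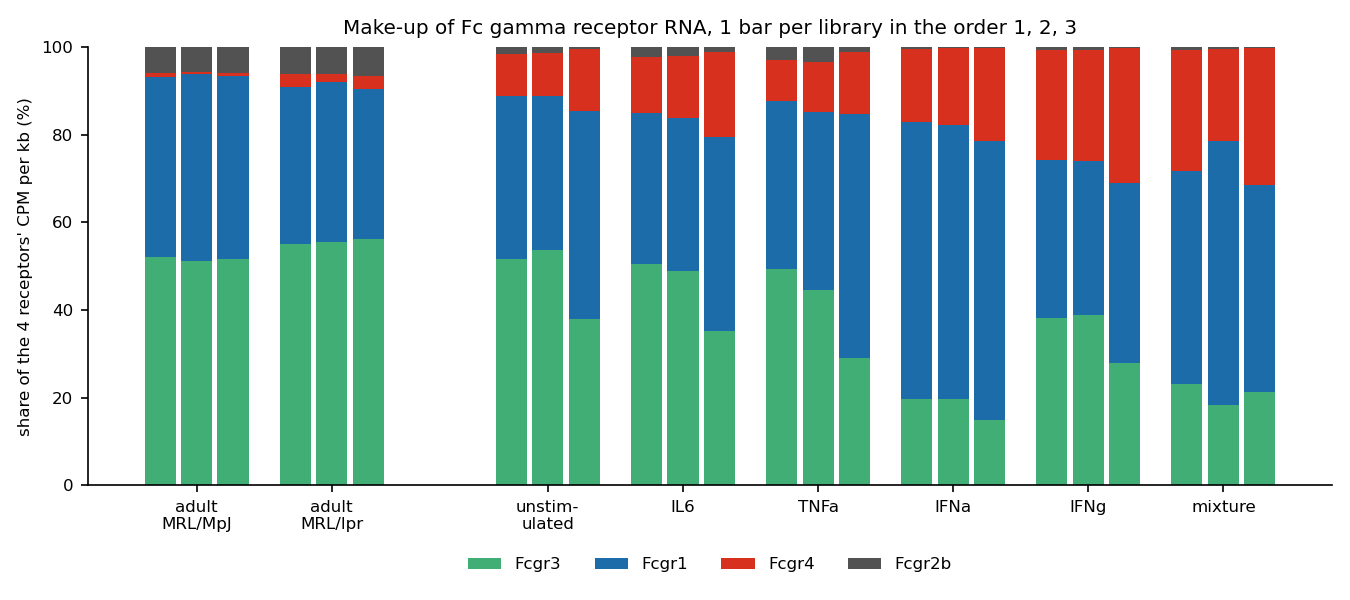
Share (%) of each receptor in the summed CPM per kb of the 4 receptors, 1 stacked bar per library in the order 1, 2 and 3 within each group. Fcgr1 fills 62.4% to 63.5% of the IFNa bars, and Fcgr2b, the top segment, reaches 5.76% to 6.69% in adults and at most 3.51% in culture.

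The level of the common gamma chain relative to the chains it serves differed between conditions, given here without a test. Its CPM per kb over the summed activating chains was 1.22 to 1.67 in unstimulated cultures and 1.78 to 3.17 with TNFa. It was 0.444 to 0.526 with IFNg, 0.591 to 0.633 with IFNa, 0.469 to 0.692 with the mixture and 0.738 to 0.916 with IL6. None of these 4 ranges, nor that of TNFa, overlapped the unstimulated one. Adult MRL/lpr libraries had 0.566 to 0.614 and adult MRL/MpJ libraries 0.611 to 0.653, with overlap.

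In the neonatal cultures microglial markers summed to 4749 to 7613 CPM and none of the 10 was at 0. Of these, 2 rose and 4 fell with IFNg, 2 and 3 with IFNa, 1 and 3 with TNFa, and 3 and 4 with the mixture. Border macrophage markers summed to 1230 to 2016 CPM, with 8 tested. Ms4a7 rose with TNFa (log2 1.06, adjusted p = 0.0158) and the mixture (log2 0.76, adjusted p = 0.0336), Stab1 fell with IFNa (log2 -0.58, adjusted p = 0.00758) and the mixture (log2 -0.61, adjusted p = 0.00244), and the other calls were those of Mrc1, given with the genes most like Fcgr2b. Monocyte marker sums were 37.1 to 59.1 CPM unstimulated, 163 to 187 CPM with IFNg, 128 to 149 CPM with IFNa, 139 to 258 CPM with TNFa, 156 to 292 CPM with the mixture and 24.3 to 46.6 CPM with IL6. Of these 7 markers Itga4 alone passed with IFNg (log2 2.18) and TNFa (log2 2.28), where the list medians were -0.82 and -0.07. Itga4 and Plac8 rose with IFNa (log2 1.65 and 3.02, list median 0.96), and with the mixture Vcan as well (log2 2.14, 3.54 and 2.31, list median 1.57). Natural killer cell markers summed to at most 1.36 CPM, with Klrd1 at 0 in each treated group. Neutrophil markers summed to 143 to 264 CPM, B cell markers to 7.54 to 50.6 CPM with Mzb1 at 0 in each group, and T cell markers to 5.80 to 79.9 CPM with Cd8a at 0 in each group. The T cell sum was 32.7 to 79.9 CPM with the mixture and 6.47 to 12.1 CPM unstimulated, and of the 2 T cell markers tested Lck was the 1 called, higher with the mixture (39.4-fold), IFNg (10.7-fold) and IFNa (4.39-fold). Dendritic cell markers summed to 1.38 to 16.0 CPM and mast cell markers to 1.21 to 30.4 CPM, the highest of each with the mixture. Of 2 tested in each list, Clec9a and Hdc rose with IFNg (log2 5.91 and 3.17), IFNa (log2 5.08 and 3.79) and the mixture (log2 7.70 and 4.25). Among B cell markers Ighm rose with IFNg (log2 1.87) and Cd79b fell with the mixture (log2 -1.43). The part of these cells in the cytokine results was not tested.

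The signalling genes that sit below the receptors were read from 7 lists. Their counts stand against shares called over all genes of 12.9% with IFNg, 14.5% with IFNa, 8.1% with TNFa and 32% with the mixture. A count near that share, such as 5 of 11 inhibitory genes or 2 of 7 genes of the DAP12 list with the mixture, is no result about the list. Of 18 activating kinases and effectors, 7 rose and 0 fell with IFNg (median log2 0.46, against -0.02 over all genes). With IFNa 7 rose and 0 fell (median 0.06, against -0.04), and with TNFa 7 rose and 0 fell (median 0.00, against -0.02). With the mixture 9 rose and 2 fell (median 0.46, against -0.05). With the block, 12 passed with IFNg and 6 with IL6, where 3468 and 714 of 14626 genes did. The adaptor Lcp2 (SLP-76) rose 3.46-fold with IFNg (log2 1.79 ± 0.203, adjusted p = 2.13e-05) and 4.93-fold with the mixture (log2 2.30 ± 0.206, adjusted p = 4.79e-07). Lyn, the Src family kinase that phosphorylates receptor motifs, rose 3.34-fold with IFNa (log2 1.74 ± 0.191, adjusted p = 1.58e-05). Its relative Fgr rose 18.5-fold with TNFa (log2 4.21 ± 0.548, adjusted p = 8.90e-05). These genes are named where they changed most in their list. Lyn also measured 1100 to 1482 CPM with the mixture and 648 to 766 CPM with IFNg, against 220 to 336 CPM unstimulated. Lcp2 also measured 232 to 388 CPM with TNFa, against 72.0 to 113 CPM unstimulated.

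Syk rose 3.30-fold with TNFa (log2 1.72 ± 0.291, adjusted p = 0.000955), from 127 to 171 CPM unstimulated to 414 to 555 CPM. It did not pass with IFNg (log2 -0.26, adjusted p = 0.688), IL6 (log2 -0.14, adjusted p = 0.972) or the mixture (log2 0.16, adjusted p = 0.757). With IFNa the estimate was lower (log2 -0.66, adjusted p = 0.160) and passed with the block (log2 -0.70, adjusted p = 0.0120).

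Of 11 inhibitory phosphatases and adaptors, 2 rose and 1 fell with IFNg (median log2 0.25, against -0.02), and 4 rose and 1 fell with the mixture (median 0.35, against -0.05). With IFNa 1 rose (median 0.18, against -0.04), and with TNFa 1 rose (median -0.01, against -0.02). With the block 6, 8, 4 and 4 of the 11 passed in these comparisons, where 3468, 6314, 3712 and 2542 of 14626 genes did. Ptpn6, which encodes the phosphatase SHP-1, rose with IFNg (log2 1.12 ± 0.179, adjusted p = 0.000453), the mixture (log2 1.11 ± 0.179, adjusted p = 0.000156) and TNFa (log2 0.70 ± 0.178, adjusted p = 0.0193). With IFNa it passed with the block (log2 0.45, adjusted p = 0.00712). Inpp5d, whose product SHIP1 acts at FcgammaRIIB, passed in none of the adult, IFNg, IL6, IFNa, TNFa and mixture comparisons. Its log2 values ran from -0.48 with the mixture (adjusted p = 0.27) to 0.17 with IL6 (adjusted p = 0.962). With the block, Inpp5d was lower with TNFa (log2 -0.47, adjusted p = 0.0302) and with the mixture (log2 -0.53, adjusted p = 0.00612). The adaptor Dok2 rose with IFNg (log2 1.34 ± 0.203, adjusted p = 0.000284) and Dok1 with IFNa (log2 0.86 ± 0.228, adjusted p = 0.0170). Pag1, an anchor for the inhibitory kinase Csk, fell with the mixture (log2 -1.49 ± 0.259, adjusted p = 0.000301).

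Among 4 tested genes for other receptors that pair with the common gamma chain, 2 rose with TNFa (median log2 1.06, against -0.02) and 2 with the mixture (median 0.46, against -0.05). Clec4e (Mincle) rose 164-fold with TNFa (log2 7.36 ± 0.426, adjusted p = 2.75e-08), from 0.905 to 1.87 CPM to 182 to 283 CPM, and 24.7-fold with the mixture (log2 4.63 ± 0.392, adjusted p = 3.32e-07). DAP12, encoded by Tyrobp, is the sister adaptor of the gamma chain. Tyrobp passed with none of the 5 treatments, with log2 values from -0.31 (IFNa, adjusted p = 0.365) to 0.03 (TNFa, adjusted p = 0.980), and was lower with IFNa in the fit with the block (log2 -0.31, adjusted p = 0.00880). Of 7 genes for DAP12 and its receptors, 1 rose and 1 fell with IFNg (median -0.08, against -0.02), 1 rose with TNFa (median 1.31, against -0.02), and 1 rose and 1 fell with the mixture (median -0.04, against -0.05). Clec5a rose 11.1-fold with TNFa (log2 3.48 ± 0.210, adjusted p = 3.22e-08) and 5.04-fold with the mixture (log2 2.33 ± 0.202, adjusted p = 3.35e-07). Cd300lb fell with IFNg (log2 -1.65 ± 0.355, adjusted p = 0.00530).

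Of 9 other receptors with ITIMs, 2 rose with TNFa (median log2 0.90, against -0.02), 1 fell with IFNa (median -0.11, against -0.04), and 2 rose and 1 fell with the mixture (median 0.67, against -0.05). With the block 7, 4 and 6 passed, where 2542, 3712 and 6314 of 14626 genes did. Siglece rose 16.0-fold with TNFa (log2 4.0 ± 0.541, adjusted p = 0.000127), Cd33 fell with IFNa (log2 -1.27 ± 0.294, adjusted p = 0.00676) and Cd300a fell with the mixture (log2 -1.36 ± 0.242, adjusted p = 0.000356). Of 12 genes of the phagocytic actin machinery, 5 rose and 0 fell with the mixture (median 0.28, against -0.05), 3 rose with IFNa (median 0.06, against -0.04) and 1 with IFNg (median 0.16, against -0.02). With the block 5 passed with IFNg, where 3468 of 14626 genes did. Actr3, a subunit of the Arp2/3 complex, rose with the mixture (log2 1.29 ± 0.220, adjusted p = 0.000251), IFNa (log2 1.02 ± 0.219, adjusted p = 0.00408) and IFNg (log2 0.69 ± 0.217, adjusted p = 0.0477).

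Of the 5 other immunoglobulin receptors tested, Trim21, the cytosolic antibody receptor and a lupus autoantigen (Ro52), was the 1 that rose with IFNg (log2 1.54 ± 0.331, adjusted p = 0.00505), IFNa (log2 2.07 ± 0.336, adjusted p = 0.000509) and the mixture (log2 2.74 ± 0.344, adjusted p = 1.61e-05). The list medians were 0.09, -0.32 and -0.14, against -0.02, -0.04 and -0.05. Fcgrt, the neonatal Fc receptor that recycles IgG, passed with no treatment (log2 from -0.42 with TNFa, adjusted p = 0.204, to 0.29 with IL6, adjusted p = 0.672). With the block it was lower with TNFa (log2 -0.41, adjusted p = 0.00701) and with IFNa (log2 -0.31, adjusted p = 0.0283). With IL6, edgeR called 0 of the 66 tested genes of the 7 lists, against 12 at an unadjusted p under 0.05, 3 with DESeq2, 0 with limma-voom and 13 with the block. Of all 14626 genes, 143 passed with edgeR, 373 with DESeq2, 161 with limma-voom and 714 with the block. Their number at an unadjusted p was not counted.

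In the adults 45.7% of all genes were called, 24.1% higher and 21.6% lower, and list counts near these shares, such as 5 of 11 inhibitory genes or 4 of 7 genes of the DAP12 list, are no result about the list. There, 8 of 18 activating kinases and effectors rose and 2 fell (median log2 0.28, against 0.01). Card9, which carries Syk signals to NF-kB, rose 3.49-fold, from 66.3 to 85.9 CPM to 233 to 272 CPM (log2 1.8 ± 0.124, adjusted p = 8.42e-07). Syk did not pass (log2 0.19 ± 0.131, adjusted p = 0.251). Of the 11 inhibitory genes 3 rose and 2 fell (median 0.03, against 0.01), among them Dok3 (log2 0.86 ± 0.113, adjusted p = 9.47e-05) and Ptpn6 (log2 0.52 ± 0.0912, adjusted p = 0.000673), both higher. Tyrobp was 1.46-fold lower (log2 -0.54 ± 0.127, adjusted p = 0.00424), and in its list 2 rose and 2 fell (median 0.83, against 0.01). Trem1 rose 3.83-fold at low levels, from 0.957 to 1.43 CPM to 2.69 to 6.54 CPM (log2 1.94 ± 0.461, adjusted p = 0.00479). Among 5 tested gamma-chain partners 2 rose and 1 fell (median 1.31, against 0.01), with Clec4e at 2.53 to 13.9 CPM against 0.253 to 1.41 CPM (log2 2.99 ± 0.655, adjusted p = 0.00329).

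Among 9 ITIM receptors in the adults 3 rose and 4 fell (median log2 0.28, against 0.01), and Lilrb4a rose 42.1-fold (log2 5.40 ± 0.833, adjusted p = 0.000731). That fold rests on a level near 0, with 0 to 0.752 CPM in MRL/MpJ and 5.45 to 21.3 CPM in MRL/lpr. Of the actin genes 7 of 12 fell and 0 rose (median -0.29, against 0.01), Rac1 by the most (1.93-fold lower, log2 -0.95 ± 0.102, adjusted p = 2.44e-05). With total counts the median of all genes was 0.27, and the lists were not counted with that scaling. Of 4 other immunoglobulin receptors tested, 2 fell and 0 rose (median -0.46, against 0.01). Fcgrt was 2.05-fold lower in MRL/lpr (log2 -1.03 ± 0.136, adjusted p = 9.63e-05), at 117 to 169 CPM against 264 to 316 CPM.

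Across the 18 neonatal libraries, log2 CPM of Fcgr1 and Fcgr4 correlated at Pearson r = 0.958, Fcgr3 and Fcgr4 at 0.811, and Fcgr1 and Fcgr3 at 0.656. Fcgr2b stood apart from Fcgr1 (r = -0.105) and Fcgr4 (r = 0.0743), with r = 0.468 to Fcgr3. Libraries of a condition share their treatment and same-numbered ones deviated together, so these r values are descriptions without a p. Among 9815 genes compared, Fcgr1 was most like Sp110 (r = 0.980), C130026I21Rik (0.978) and Phyh (0.975), and Fcgr4 most like Zfp281 (0.973), Dennd1a (0.973) and Snap29 (0.972). Fcgr3 was most like Eif1a (0.945), Atf6 (0.945) and Litaf (0.943), and Fcer1g most like Arpc5 (0.946), Tpm3 (0.939) and Wdr1 (0.928). Fcgr2b was most like Cep83 (0.895), Mrc1 (0.848) and Rai14 (0.783). Mrc1, the mannose receptor, is 1 of the border macrophage markers. It rose with IL6 (log2 1.16 ± 0.117, adjusted p = 8.47e-05) and IFNg (log2 0.45 ± 0.116, adjusted p = 0.0153) and fell with IFNa (log2 -0.45 ± 0.116, adjusted p = 0.0134). With the mixture it passed with the block (log2 0.29, adjusted p = 0.0142). Of the 8 border macrophage markers tested 1 rose with IL6, Mrc1, and the list sum with IL6, 1778 to 2016 CPM, overlapped the unstimulated 1599 to 1956 CPM.

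The genes next to the members were taken as the nearest 2 tested genes on each side, 12 genes that are not members. In the adults Polr3gl and Tomm40l rose (log2 0.92 and 0.51) and Txnip and Sdhc fell (log2 -0.56 and -0.52). Gm20632, 41090 bases from Fcgr1, fell with IFNg (log2 -2.85 ± 0.892, adjusted p = 0.0459) and with the mixture (log2 -2.44 ± 0.876, adjusted p = 0.0430). Gm20633, nearer at 36529 bases, passed with neither (log2 0.28, adjusted p = 0.948, and log2 0.31, adjusted p = 0.905). Txnip, 263988 bases from Fcgr1, rose with IFNg (log2 1.00 ± 0.165, adjusted p = 0.000608), IFNa (log2 0.59 ± 0.164, adjusted p = 0.0221) and the mixture (log2 0.66 ± 0.164, adjusted p = 0.00514). With the block Pcp4l1 passed with IL6 (log2 1.59, adjusted p = 0.0492), Tomm40l with TNFa (log2 -0.43, adjusted p = 0.0434) and Adamts4 with the mixture (log2 3.37, adjusted p = 0.0209). Fcgr4 lies between Fcgr2b and Fcgr3, 42373 and 21413 bases away, and the 3 genes had different orders over the conditions.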

How the data were processed

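RNA of CD11b-selected brain cells was sequenced in 24 libraries (8 groups of 3) from directional libraries, per the labels' protocols. The tools named in the submitters' processing notes are the trimmer cutadapt 2.1 and the aligner STAR 2.7.1a, and the build is mm10. No source used here names the counting program, its strand setting or the annotation. The authors deposited raw read counts per gene, not normalised, and a column of gene lengths in bases, another value of the deposited table that served for CPM per kb. The lengths of the 5 members equal their exon unions in GENCODE M21.

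Adult and neonatal libraries were fitted separately with the robust quasi-likelihood test of edgeR 4.0.16 in R 4.3.3, after filterByExpr and TMM scaling, with Benjamini-Hochberg adjustment over 13799 adult and 14626 neonatal genes. SE is the absolute log2 fold change over the square root of F. DESeq2 1.42.0, limma-voom (limma 3.58.1), other scalings and filters, the replicate number as a block, a fit of only the groups compared, a fit of all 24 libraries and leaving out each library were the alternatives. Each alternative was run on its own, so libraries were left out without the block. Scripts were tested on simulated counts. Same-numbered neonatal libraries deviated together from their group means (45 of 45 pairs over 0.1, r from 0.184 to 0.687, while other pairs reached at most 0.223), so the numbers pair them; in the adults 2 of 3 pairs were over 0.1, and the numbers were not taken as pairs. No 2 libraries agreed within sampling noise.

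Named were the 5 members throughout; per pathway list the called gene with the largest change in each of 6 comparisons, and always Tyrobp, Syk, Inpp5d, Ptpn6 and Fcgrt; the 3 genes most like each member by Pearson r of log2 CPM (prior count 2) over the 18 neonatal libraries, leaving out genes whose mean log2 CPM was under 2; and the nearest 2 tested genes on each side. Values of Mrc1 were added after they were seen. Members and lists were chosen with earlier results of these data known. Sequences are from RefSeq, matched by symbol.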

Additional observations from a re-analysis of the deposited data

How the results depend on the processing

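Of 950 values of single members under alternatives, 861 kept their side of the threshold, 60 lost a call, 29 gained one and 0 reversed a call. Among values not called, 16 changed sign. The count of members called changed by over 1.5 times as follows; the causes were not tested. In the adults (5) it was 3 with total counts, 3 with no filter but 1 read, 2 with all 24 libraries in 1 fit, and 3 to 5 leaving out a library. With the replicate block it was 5 for IFNg (3), 4 for IL6 (2), 2 for mixture against IFNg (0), 4 for mixture against IFNa (2) and 1 for the mixture against the sum (0). Over all 14626 genes, 3468, 714, 3844, 2689 and 960 passed with the block in these comparisons. For IL6 the count of members was 1 with total counts, 1 with no filter and 0 to 0 leaving out a library, and for TNFa (1) it was 0 to 1 leaving out a library. For mixture against IFNg it was 1 with DESeq2, 1 with total counts, 1 with all 24 libraries and 0 to 1 leaving out a library; for mixture against IL6 (3) 1 to 3. For mixture against IFNa it was 4 with DESeq2, 1 with limma-voom, 1 with total counts, 1 with no filter, 0 with only the groups compared and 0 to 2 leaving out a library. For IFNg against IFNa (2) it was 1 with total counts, 1 with no filter and 1 to 2 leaving out a library. Smaller changes were 5 for the mixture (4) with the block, DESeq2, all 24 libraries or without mixture library 3, 4 for mixture against IL6 and 3 for IFNg against IFNa with the block, 3 for mixture against TNFa (4) under 6 alternatives, and 2 to 4 for IFNg leaving out a library. The adult log2 ratio of activating to inhibitory receptors (-0.12) reversed to 0.48 as the mean of 3 log2 ratios. The replicate block changed no call of a member, a named pathway gene, a neighbour or Mrc1 in the cytokine comparisons, beyond those given beside the results. The other cell type markers named were not compared with and without the block. Low Fcgr4 in adults rests on 55 to 368 reads a library, and Fcgr2b in culture on 150 to 1724.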
